A study of Mus musculus with 18 samples.

Results

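Removing the testis of one side leaves a mouse with a second testis, a second epididymis and a blood supply that both sides share. The comparison described here set the IS-caput epididymis of the untouched side, called contralateral, against the IS-caput of sham-operated males. It asked whether the intact side stays like an unoperated duct or changes once its partner has lost the testis. Members were the libraries whose titles name the contralateral side and those whose titles name sham, 3 of each, which makes 6 of the 18 libraries of the series. All 6 came from wild-type B6D1F1 males operated at 8 weeks of age and sampled 4 weeks later, at 12 weeks. The contralateral group had unilateral orchidectomy (OD) of the other side, and its tissue was taken from the same 3 animals that gave the ipsilateral libraries. The other groups are ipsilateral, bilateral OD, and untreated WT and Nell2-/- males of 14 weeks, again 3 libraries each. The initial segment (IS) was dissected together with the caput, so 1 library mixes both regions, and in such bulk tissue fewer cells of a type and less RNA per cell cannot be told apart.

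The epididymis matures sperm and depends on the testis in 2 ways. Androgens reach it through the blood. The initial segment also needs testicular proteins that arrive inside the duct, a route called lumicrine signaling. NELL2, secreted by germ cells, acts with its partner NICOL on the receptor tyrosine kinase ROS1 of the initial segment epithelium, which turns on ERK signaling and the production of secreted proteins such as the protease OVCH2. On the contralateral side both routes come from the remaining testis.

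Values are FPKM, a level per transcript length and per sequenced library. The 6 libraries carried the defining genes of the labelled tissue. The initial segment genes Rnase10, Lcn8, Lcn9, Defb25, Cst8 and Adam28 lay between 1089 and 19301 FPKM in every one of them, and the caput genes Gpx5, Lcn5, Crisp1 and Adam7 between 515 and 43703 FPKM. The receptor gene Ros1 lay between 49.8 and 73.1 FPKM. The groups differed in several library properties. Summed FPKM over all genes was 777753 to 825866 in sham and 720008 to 724780 contralateral, and the 10 most abundant genes held 19.5% to 21.2% of it in sham and 16.9% to 17.4% contralateral. Each library's deviation from the mean of all 18 was also set against transcript length. The slope was −0.119, −0.0594 and −0.0964 log2 units per doubling of length in the sham libraries, and between −0.0245 and 0.0510 in the other 15, contralateral included. Long transcripts thus tended to read lower in sham than in the other groups. Read depth is not given by FPKM, and the value of 1 read relative to sham replicate 1 was 0.865 to 1 across the 6 libraries.

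Of 17302 genes tested with limma, 1036 (5.99%) read lower contralateral than in sham and 1150 (6.65%) higher, 12.6% together, at an adjusted p under 0.05. The ranges of the groups did not overlap in 5301 of the 17302 genes (30.6%), so that layout is common here. Most of the called differences were small. The median log2 difference over all genes was −0.03 and its median size 0.18, and only 40 of the lower and 169 of the higher genes differed over 2-fold between group means. At 10-fold or more 7 were lower and 6 higher (0.0751%). The numbers depended on transcript length. After each library was corrected for length, 514 genes were lower and 434 higher, and 312 of the 1036 and 416 of the 1150 kept their call. The numbers also depended on single libraries. Without sham replicate 1, 349 were lower and 675 higher, and without contralateral replicate 2, 486 were lower and 668 higher. Leaving out 1 library at a time gave 349 to 898 lower and 668 to 1227 higher.

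Summed levels of 5 families of secreted epididymal proteins read 18.4% to 30.1% below sham in the contralateral libraries, with no overlap between groups, which in a design of this size cannot reach significance. The lipocalins carry small hydrophobic molecules, and the cystatins inhibit cysteine proteases. β-defensins coat the sperm surface. Summed FPKM of 42 β-defensins was 76553, 64736 and 67550 in sham and 52480, 53292 and 53076 contralateral, a difference of −23.9%. For 8 lipocalins the sum was 46563, 45067 and 43810 in sham and 36830, 35120 and 35961 contralateral, −20.3%. For 12 cystatins it was 36417, 33607 and 31521 against 22905, 24041 and 24643, −29.5%. In each of these families the ranges of the groups did not overlap, and the contralateral libraries lay closer together than the sham libraries. CRISPs, cysteine-rich proteins that bind sperm, summed to 1236 ± 31.0 in sham and 863.6 ± 109 contralateral (SD, n = 3), −30.1%, which fell to −6.73% without Crisp1. Glutathione peroxidases, which remove peroxides, summed to 43001 ± 1371 and 35073 ± 655.9 (SD, n = 3), −18.4%, with Gpx5 making up nearly all of the sum. An exact two-sided permutation test of 3 against 3 cannot give a p below 0.1, and each of these 5 sums gave p = 0.1 (0.143 adjusted over 10 sums). In WT males the mean sums were 56225 for β-defensins, 39343 for lipocalins, 21317 for cystatins, 667.9 for CRISPs and 33945 for glutathione peroxidases. Each WT mean lay nearer the contralateral mean than the sham mean. The RNase A family (−5.14%, exact p = 0.2), the ADAM proteases (−1.83%, exact p = 0.7) and the WAP and Kazal protease inhibitors (10.8%, exact p = 0.4) overlapped between groups. Summed FPKM over all genes was lower on the contralateral side as well. With median-ratio scaling of the libraries the differences were −22.9% for β-defensins, −19.2% for lipocalins and −28.5% for cystatins. For CRISPs and glutathione peroxidases they were −29.2% and −17.3%. The part that summed FPKM over all genes and transcript length have in these sums was not tested.

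**Figure D1:**
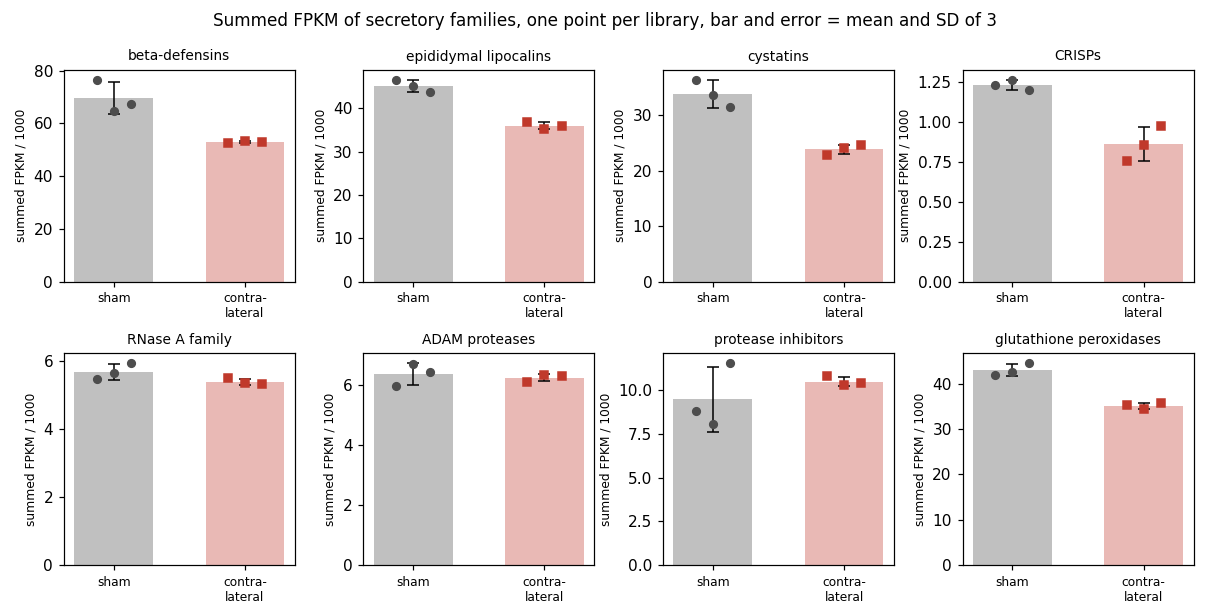
Summed FPKM (axis in 1000 FPKM) of 8 secretory families in the 3 sham (grey circles) and 3 contralateral (red squares) libraries, bars and error bars giving mean and SD of 3. The β-defensin, lipocalin, cystatin, CRISP and glutathione peroxidase sums lie 18.4% to 30.1% lower contralateral without overlap, while those of the RNase A family, ADAM proteases and protease inhibitors overlap.

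Gene by gene the same families gave fewer calls. Lcn8, an initial segment lipocalin (NCBI gene 78076, chromosome 2 from 25653118 to 25656217 on GRCm38), read 18468, 18018 and 14325 FPKM in sham and 11922, 10861 and 11193 contralateral (log2 −0.57 ± 0.15 SE, adjusted p = 0.0251). The 3 contralateral values lay below all sham values. With it Lcn2, an iron-siderophore binding lipocalin (−0.43 ± 0.08, adjusted p = 0.00329), and Lcn10 (−0.47 ± 0.11, adjusted p = 0.00926) were called, 3 of 8 lipocalins in all with a median of −0.43. Of 12 cystatins 3 were lower, 9230104L09Rik (−0.47 ± 0.13), Cst3 (−0.23 ± 0.06) and Cstb (−0.24 ± 0.07). Groups did not overlap in 30.6% of all genes tested, in either direction. Cst8, Cst11 and Cst12 read lower in every contralateral library than in any sham library but did not pass (adjusted p = 0.167, 0.139 and 0.478). Their standard errors, 0.26, 0.22 and 0.45, are shared by all 6 groups of the fit. Of 37 β-defensins tested 4 were lower (Defb18, Defb20, Defb36 and Defb41) and 4 higher (Defb12, Defb21, Defb23 and Defb30). Defb18 (−0.51 ± 0.10, adjusted p = 0.00534) and Defb20 (−0.48 ± 0.12, adjusted p = 0.0167) were the abundant ones among the lower, and Defb25 (−0.49 ± 0.23, adjusted p = 0.188) and Defb48 (−0.51 ± 0.70, adjusted p = 0.697) did not pass. Gpx5, the secreted peroxidase of the caput, was lower (−0.30 ± 0.09, adjusted p = 0.0456), a call lost when any 1 of the 6 libraries was left out. After the length correction Lcn2 and Gpx4 were still called lower and no β-defensin or cystatin was, while 6 β-defensins were called higher. The higher β-defensins numbered 0 without contralateral replicate 1 and 8 without sham replicate 3. Without sham replicate 1, 1 lipocalin (Lcn2), 1 β-defensin (Defb18) and no cystatin were called lower. In the fit of only the 6 libraries 5 lipocalins and 5 cystatins were lower and none higher. Of the β-defensins 6 were lower and 2 higher in that fit, against 831 lower and 657 higher over all genes.

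Of 7 lumicrine relay genes 1 was lower and 2 higher as fitted, against 12.6% of all genes called, and none was called with the length correction or without sham replicate 1. Nell2 transcript lay between 0.121 and 0.369 FPKM in the 6 libraries (adjusted p = 0.275). Gm1673, which encodes NICOL, read 11.1, 14.0 and 17.3 FPKM in sham and 14.7, 12.6 and 15.5 contralateral (0.04 ± 0.38, adjusted p = 0.977). Those ranges overlapped. The receptor gene Ros1 read 49.8, 58.7 and 56.7 FPKM in sham and 67.8, 73.1 and 62.6 contralateral (0.30 ± 0.08, adjusted p = 0.0219), without overlap. With the length correction its difference was 0.06 (adjusted p = 0.725), the longest transcript having 7425 bases. Ovch2, the secreted protease that initial segment differentiation switches on, read 1159, 1165 and 1036 FPKM in sham and 841, 854 and 876 contralateral (−0.38 ± 0.11, adjusted p = 0.0324). It too did not pass with the length correction (−0.32, adjusted p = 0.0959). Adam28 (−0.25 ± 0.09, adjusted p = 0.0793) and the phosphatase gene Ptpn6 (−0.06 ± 0.08, adjusted p = 0.646) did not pass, and Ptpn11 (0.18 ± 0.05, adjusted p = 0.0439) turned to −0.07 with the length correction.

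ERK targets and feedback genes were lower in 4 of 20 tested members and higher in 1, Il17rd (adjusted p = 0.0484), with a median of −0.20. Over all genes 5.99% were lower and 6.65% higher. Ier3, an early response gene of growth factor signaling, read 44.4, 38.4 and 39.3 FPKM in sham and 27.4, 27.5 and 29.6 contralateral (−0.53 ± 0.12, adjusted p = 0.00886). Spry2, a feedback inhibitor of receptor tyrosine kinases, read 14.3, 16.5 and 13.3 in sham and 10.7, 11.9 and 10.4 contralateral (−0.41 ± 0.09, adjusted p = 0.00861). In both genes all contralateral values lay below all sham values. Phlda1 (−0.34 ± 0.07, adjusted p = 0.00754) and Dusp5, a phosphatase of nuclear ERK (−0.34 ± 0.11, adjusted p = 0.045), were called as well. Etv5, an ETS factor of the initial segment (206, 230 and 190 FPKM against 172, 190 and 175), and Dusp6, a cytoplasmic ERK phosphatase (82.6, 82.7 and 70.0 against 65.3, 61.6 and 65.1), gave adjusted p = 0.108 and 0.129. With the length correction 3 members stayed lower and none was higher. Without sham replicate 1, 2 were lower. Ipsilateral means were 2.01 FPKM for Etv5, 4.45 for Dusp6 and 7.56 for Spry2, while that of Il17rd, 1.31, was above the contralateral 1.15.

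Genes that need luminal input were marked by libraries outside the comparison. There were 265 genes at least 10-fold lower in Nell2-/- than in WT males, and 31 of them were lower and 2 (Tenm4 and Zfp804b) higher contralateral than in sham, with a median of −0.36 against −0.03 over all genes, of which 5.99% were lower. Their summed FPKM was 143340, 133910 and 120030 in sham and 94266, 93783 and 97282 contralateral, −28.2%. The WT mean of the same sum was 104690, between the groups. With the length correction 12 were lower and 1 higher (median −0.33), and without sham replicate 1, 8 were lower. In the fit of only the 6 libraries 69 were lower. Another 418 genes were at least 10-fold lower in bilateral OD than in WT and not called lower in Nell2-/-. Of these 7 were lower and 16 higher contralateral than in sham, with a median of 0.00. Their median log2 difference was −1.86 for bilateral OD minus sham and −0.55 for sham minus WT.

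A different set of epididymal genes was several-fold higher on the contralateral side, and in these sham replicate 3 stood between the other sham libraries and the contralateral ones. Rnase9, a catalytically inactive RNase A relative of the epididymis (NCBI gene 328401, chromosome 14 from 51038459 to 51041903), read 139, 199 and 902 FPKM in sham and 1252, 1114 and 1007 contralateral (1.94 ± 0.52, adjusted p = 0.0292). Defb30 read 134, 147 and 523 against 760, 641 and 611 (1.62 ± 0.43, adjusted p = 0.0277). AY761185, a defensin-like gene, read 67.2, 54.3 and 327 against 547, 466 and 431 (2.17 ± 0.50, adjusted p = 0.0151). In each gene sham replicate 3 was over 2 times the other sham values, yet below every contralateral library. The lipocalin gene Lcn5 had the same layout, 1507, 1612 and 5708 FPKM in sham and 6716, 5801 and 5676 contralateral, but its groups met and it did not pass (1.33 ± 0.41, adjusted p = 0.0531).

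The same held for BC048679 (3.02 ± 0.60, adjusted p = 0.00736), for the gel-forming mucin gene Muc5b (2.57 ± 0.50, adjusted p = 0.00626), Gm6040 (1.86 ± 0.35, adjusted p = 0.00505), the serpin gene Serpina1f (1.62 ± 0.39, adjusted p = 0.0171), Enpp1, an ectoenzyme that makes pyrophosphate (1.57 ± 0.33, adjusted p = 0.00896), and the splicing factor gene Mbnl3 (1.57 ± 0.39, adjusted p = 0.0202). There were 20 genes called higher over 2-fold with a mean of at least 10 FPKM. In 14 of them sham replicate 3 was over 2 times each of the other sham libraries, and in none did replicate 1 or replicate 2. Without sham replicate 3 those 14 differences were larger, such as 2.75 for Rnase9 and 3.77 for BC048679. That follows from how the 14 were picked, and is not a separate result. Rnase9 and Defb30 did not pass once any 1 library other than sham replicate 3 was left out, and AY761185 did not without sham replicate 1 or contralateral replicate 1. The Kazal inhibitor genes Spink11 (483, 444 and 1011 FPKM against 1173, 1075 and 1261) and Spink12 (253, 250 and 397 against 412, 403 and 419) were higher too. With Spink5 and Wfdc1 they and Serpina1f make 5 of 32 protease inhibitors called higher, and 1, Eppin, was lower. That 5 became 11 without sham replicate 3 and 1 without sham replicate 1. Defb23, the β-defensin called 10-fold higher, read 0.640, 0.406 and 0.742 FPKM in sham and 12.7, 3.99 and 3.99 contralateral (3.14 ± 0.73, adjusted p = 0.0146), which did not pass without contralateral replicate 1.

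In the other groups these genes did not follow the lumicrine set. Rnase9 had a mean of 2756 FPKM on the ipsilateral side and 2075 in Nell2-/-, against 557 in WT, and Defb23 had 134 and 54.1 against 1.33. WT lay nearer to sham for BC048679 (7.17 FPKM) and AY761185 (65.8 FPKM), and nearer to the contralateral level for Muc5b (22.6 FPKM). Because the initial segment and caput were dissected as 1 piece, the share of each region in a library and the level per cell cannot be told apart.

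**Figure D2:**
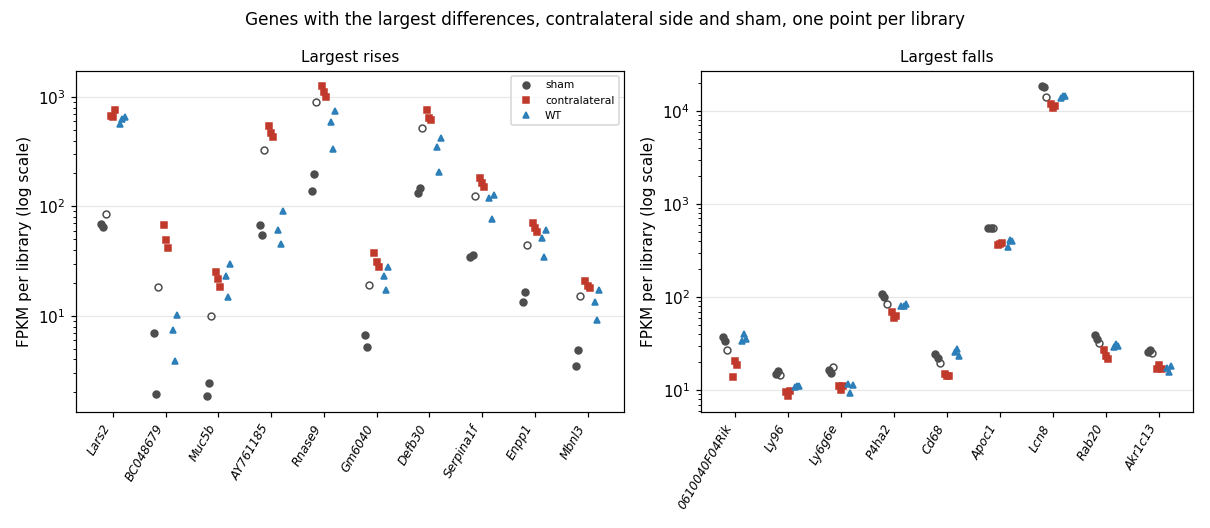
FPKM per library, on a log axis, of the 10 genes with the largest rises (left) and 9 of the 10 with the largest falls (right) that met the naming rule, in sham (grey circles, replicate 3 open), contralateral (red squares) and WT (blue triangles). Among the rises other than Lars2 the open sham point lies between the other sham libraries and the contralateral ones, for Rnase9 at 902 FPKM against 139 and 199. The falls are smaller than 2-fold and sham replicate 3 is not set apart in the same way.

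At mean levels of 10 FPKM or more, and where groups did not overlap, the 10 largest falls were below 2-fold except for 1 pseudogene. Atp6v0c-ps2, a processed copy of a proton pump subunit gene whose reads may be shared with its parent, read 146, 307 and 73.2 FPKM in sham and 0.171, 0.0104 and 24.9 contralateral (adjusted p = 0.0212). The unannotated 0610040F04Rik followed (−0.89 ± 0.24, adjusted p = 0.0279). Ly96, the MD-2 partner of the endotoxin receptor TLR4, read 15.04, 16.02 and 14.45 FPKM in sham and 9.51, 8.60 and 9.79 contralateral (−0.70 ± 0.12, adjusted p = 0.00177). Its groups stood well apart, and it was called in all 19 alternatives. Rab20, a GTPase of endosomes (−0.57 ± 0.09), Ly6g6e, a surface protein of the Ly6 family (−0.62 ± 0.11), and the aldo-keto reductase gene Akr1c13 (−0.56 ± 0.10) were also called in all 19. The collagen prolyl hydroxylase gene P4ha2 (−0.61 ± 0.16), the lysosomal glycoprotein gene Cd68 (−0.61 ± 0.15) and the apolipoprotein gene Apoc1 (−0.57 ± 0.10) complete the 10 with Lcn8. P4ha2 had means of 1.77 FPKM on the ipsilateral side and 2.46 in Nell2-/-.

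Cholesterol synthesis was the metabolic list with the clearest direction. The pathway turns acetyl units into sterols, and its enzymes are raised together by the factor SREBP2 when cells lack cholesterol. On the contralateral side 11 of 19 members were lower and none higher, with a median of −0.25. Over all genes 5.99% were lower. Idi1, which isomerises isopentenyl pyrophosphate, read 62.7, 65.4 and 53.4 FPKM in sham and 43.6, 44.9 and 43.9 contralateral (−0.45 ± 0.07, adjusted p = 0.00125). Pmvk, phosphomevalonate kinase, read 78.8, 80.2 and 80.2 against 59.6, 59.7 and 56.9 (−0.44 ± 0.07, adjusted p = 0.000806). For both genes every contralateral value lay below every sham value, and both were called in all 19 alternatives. Fdps (−0.30 ± 0.07), Msmo1 (−0.32 ± 0.07), Nsdhl (−0.23 ± 0.06) and Tm7sf2 (−0.37 ± 0.12), which make farnesyl pyrophosphate and work on the sterol ring, were lower as well. Hmgcs1 was not called (−0.13 ± 0.06, adjusted p = 0.208). The length correction left 8 members lower, and the correction on principal transcripts 5. Leaving out 1 library at a time left between 4, without contralateral replicate 3, and 9, without sham replicate 3. WT levels lay near the contralateral ones, with means of 40.1 FPKM for Idi1 and 60.9 for Pmvk.

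Since these genes moved together, their start regions were searched for the sites of 2 factors that drive the pathway. RefSeq windows of 250 bases before the start (GRCm38.p6) were matched for 14 of the 19 genes, 8 of them lower. The CCAAT box bound by NF-Y (CCAAT on either strand) was present in 13 of the 14 and in all 8 of the lower ones, and in 34.5% of 27025 mouse promoters of the same length. The sterol regulatory element (TCACNCCAC on either strand) was present in 1 of the 14, Hmgcs1, in none of the 8, and in 1.04% of all promoters. A match of letters is not a measured site. The windows of 3 lowered genes are shown so that the position of the boxes can be seen, 5′ to 3′ on the gene's strand, with CCAAT or its complement ATTGG in capitals and the last base next to the start.
Idi1, chr13:8885356-8885605, plus strand: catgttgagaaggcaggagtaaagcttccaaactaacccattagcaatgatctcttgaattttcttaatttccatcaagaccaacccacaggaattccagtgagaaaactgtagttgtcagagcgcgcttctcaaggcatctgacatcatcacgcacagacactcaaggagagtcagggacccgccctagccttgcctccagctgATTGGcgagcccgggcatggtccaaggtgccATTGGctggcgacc
Msmo1, chr8:64733579-64733828, minus strand: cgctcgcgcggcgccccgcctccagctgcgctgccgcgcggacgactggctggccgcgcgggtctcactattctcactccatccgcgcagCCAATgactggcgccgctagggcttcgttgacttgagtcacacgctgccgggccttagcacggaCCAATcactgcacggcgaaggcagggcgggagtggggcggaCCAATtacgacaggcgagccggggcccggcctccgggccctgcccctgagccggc
Nsdhl, chrX:72918271-72918520, plus strand: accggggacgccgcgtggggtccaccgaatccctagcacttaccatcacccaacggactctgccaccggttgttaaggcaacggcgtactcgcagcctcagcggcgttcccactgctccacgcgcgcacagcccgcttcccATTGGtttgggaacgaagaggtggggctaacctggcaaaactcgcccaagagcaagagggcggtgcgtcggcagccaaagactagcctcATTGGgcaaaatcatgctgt

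In Msmo1 the 3 boxes are spread over the window, and in Idi1 the 2 boxes lie near the start. Genes that move or sense sterols gave a mixed picture, with 1 of 16 lower and 2 higher. Insig1, which holds SREBP in the endoplasmic reticulum and is itself induced by it, was lower (−0.22 ± 0.06, adjusted p = 0.0228). Abca1, the cholesterol exporter induced by LXR, read 16.3, 20.7 and 19.9 FPKM in sham and 28.6, 31.4 and 29.6 contralateral (0.66 ± 0.08, adjusted p = 0.000219). It was called in all 19 alternatives, at 0.30 with the length correction. Stard4, a sterol carrier, was higher (0.28 ± 0.08, adjusted p = 0.0366), but not after that correction.

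**Figure D3:**
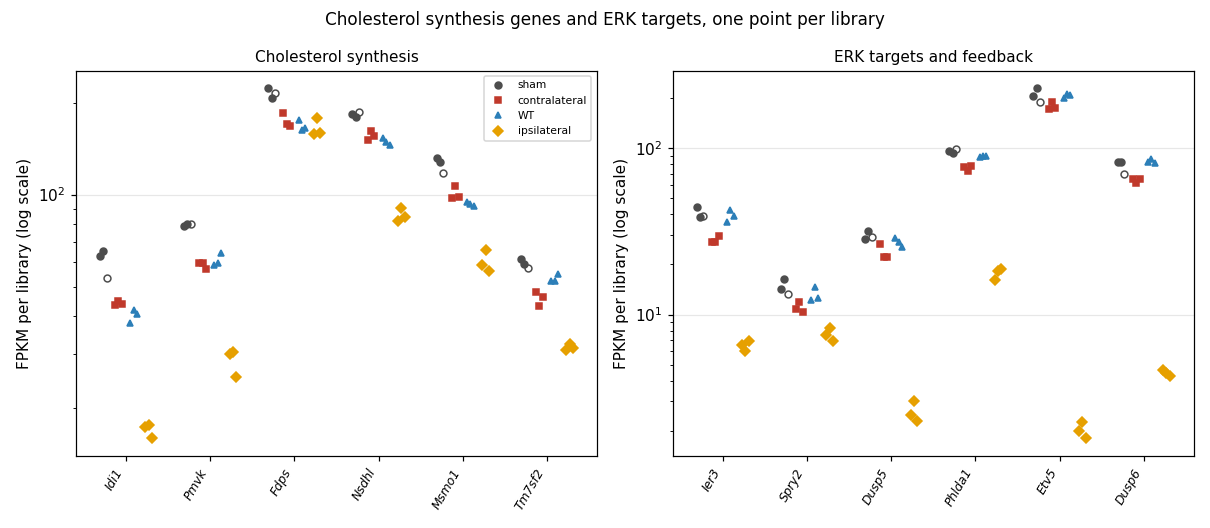
FPKM per library, on a log axis, of 6 cholesterol synthesis genes and 6 ERK targets or feedback genes in sham (grey circles, replicate 3 open), contralateral (red squares), WT (blue triangles) and ipsilateral (orange diamonds) IS-caput. Contralateral points lie below the sham points in every gene shown, and the ipsilateral points of Etv5 and Dusp6 lie far below both, with means of 2.01 and 4.45 FPKM.

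Androgen-dependent genes spoke to the blood-borne route. Of 46 tested members 7 were lower and 2 higher (median −0.06), against 5.99% lower and 6.65% higher over all genes. The lower ones were 4 with the length correction, 3 on the principal transcript and 4 without sham replicate 1. Among the most abundant, Dbi, an acyl-CoA binding protein (−0.46 ± 0.11, adjusted p = 0.0144), and B2m, the light chain of MHC class I (−0.28 ± 0.05, adjusted p = 0.00325), were lower, and Krt8 and Sat1 did not pass. Fkbp5, an androgen and glucocorticoid target, read 182, 181 and 191 FPKM in sham and 181, 202 and 183 contralateral (0.03 ± 0.05, adjusted p = 0.766), with groups that overlapped. Cdk6 (0.87 ± 0.13) and Elk4 (0.79 ± 0.14) were higher at below 8 FPKM. Srd5a2, the 5α-reductase that makes dihydrotestosterone in the duct, did not pass (0.13 ± 0.09, adjusted p = 0.403), while Srd5a1, its initial segment relative, was lower (15.7, 15.9 and 13.8 FPKM against 11.03, 11.48 and 12.16, adjusted p = 0.0327), a call lost with the length correction or without any 1 library other than sham replicate 3. Of the steroid conversion genes Hsd17b10 and the barely expressed Akr1c18 were lower as well, and neither after that correction.

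Growth and biosynthesis lists are read against the same 12.6%. Of 23 cell cycle genes 1 was lower, Pcna, the sliding clamp of DNA replication (72.2, 67.8 and 72.4 FPKM in sham and 58.4, 58.5 and 58.3 contralateral, −0.28 ± 0.06, adjusted p = 0.00599), and none was higher. With the length correction Pcna was not called (adjusted p = 0.0713). Of 15 genes of the IGF and growth hormone axis 2 were higher, Igf1 (0.62 ± 0.20, adjusted p = 0.0484) and Igf2r (0.54 ± 0.09, adjusted p = 0.00156), neither after the length correction. The receptor gene Igf1r, at 20.9, 23.3 and 21.01 FPKM in sham and 21.3, 23.6 and 21.3 contralateral, did not pass (0.02 ± 0.07, adjusted p = 0.89), but with the length correction it read −0.37 (adjusted p = 0.00778). Of 86 ribosomal protein genes 2 were lower, Rpl10 and Rps27l, with a median of −0.08. That count was 16 without sham replicate 2, and 0 without any other 1 library or with the length correction. Of 28 genes of folding and secretion in the endoplasmic reticulum 2 were lower, Xbp1 (−0.25 ± 0.05) and Spcs2 (−0.21 ± 0.05).

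Oxidative phosphorylation genes, nearly all short, were lower in 23 of 79 members and higher in 1, with a median of −0.18. Ndufa4 read 592, 505 and 550 FPKM in sham and 417, 415 and 437 contralateral (−0.37 ± 0.07, adjusted p = 0.00324). With the length correction 4 were lower. The count ran from 6, without sham replicate 1, to 38, without sham replicate 2. The member that was higher is Cox4i2, an isoform of respiratory complex IV made in low oxygen and in vessel walls, at 0.686, 0.163 and 0.448 FPKM in sham and 2.67, 1.60 and 2.29 contralateral (2.21 ± 0.44, adjusted p = 0.00432). It was called in all 19 alternatives, and its WT mean was 2.14 FPKM, so that sham stood apart from both.

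Cells around the duct gave the most calls among the marker lists. Of 10 smooth muscle genes 7 were higher and 1 lower, with a median of 0.55. Over all genes 6.65% were higher and 5.99% lower. Myh11, the smooth muscle myosin heavy chain, read 25.1, 20.8 and 26.6 FPKM in sham and 52.6, 54.8 and 58.5 contralateral (1.20 ± 0.13, adjusted p = 7.77e-05). Acta2, smooth muscle actin with a short transcript of 2035 bases, read 170, 123 and 144 against 204, 193 and 238 (0.55 ± 0.14, adjusted p = 0.0171). Des (0.55 ± 0.14), Lmod1 (0.74 ± 0.16) and Synpo2 (0.96 ± 0.14), all of the contractile apparatus, were higher as well. In Myh11 and Acta2 the groups did not overlap. After the length correction 8 members were higher and none lower, and leaving out 1 library left between 4, without sham replicate 2 or contralateral replicate 3, and 8. The member that was lower, the actin gene Actg2 (1837, 1777 and 1537 FPKM against 1245, 1219 and 1270), had means of 40.0 FPKM ipsilateral and 42.5 in Nell2-/-, as the lumicrine genes have, and outweighed the rest of the list in its summed FPKM.

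Matrix genes of fibroblasts were higher in 12 of 23 members and lower in none, with a median of 0.55. Their median transcript length was 6091 bases. Over all genes 6.65% were higher, and 19.9% of those with transcripts from 4555 bases. Hspg2, the basement membrane proteoglycan perlecan, read 3.07, 2.50 and 2.86 FPKM in sham and 6.66, 6.64 and 5.89 contralateral (1.16 ± 0.11, adjusted p = 3.1e-05). Fbn1 (1.10 ± 0.15), Lama2 (1.07 ± 0.19) and Col6a3 (0.99 ± 0.16), of microfibrils and basement membrane, were higher too, all with transcripts of 9614 bases or longer. Dcn (0.09 ± 0.39, adjusted p = 0.925) and Col3a1 (0.47 ± 0.21, adjusted p = 0.167), the more abundant members, did not pass. The length correction left 8 higher, Hspg2 at 0.70 (adjusted p = 0.00194) and Fbn1 at 0.69 (adjusted p = 0.0105). Of 11 endothelial genes 4 were higher, Emcn (0.70 ± 0.16), Flt1 (0.90 ± 0.20), Kdr (0.76 ± 0.17) and Vwf (0.58 ± 0.16), and 1 after the correction, Emcn. Among the 5 smallest p of the whole comparison were long genes of this kind, Flna, an actin crosslinker of muscle and vessel (29.9, 30.4 and 32.1 FPKM against 59.4, 57.8 and 60.8, adjusted p = 3.86e-06), and the collagen receptor gene Itga1 (1.13 ± 0.11, adjusted p = 3.1e-05), together with Birc6, a ubiquitin ligase (0.95 ± 0.09, adjusted p = 3.1e-05).

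Red cell genes were higher in 3 of 5 tested members, against 6.65% of all genes. The count was 1 in the fit of only the 6 libraries and 2 in that of the 12 operated libraries. With the length correction it was 1 of 3 tested. Hbb-b1, a β-globin, read 36.1, 22.6 and 52.0 FPKM in sham and 80.0, 132 and 83.8 contralateral (1.46 ± 0.28, adjusted p = 0.00505). Hba-a1, an α-globin, read 31.0, 14.4 and 50.9 against 56.0, 116 and 79.4 (1.499 ± 0.37, adjusted p = 0.0186). In both genes every contralateral value lay above every sham value. Summed FPKM of the 7 listed genes with values, tested or not, was 39.6 to 108 in sham, 144 to 263 contralateral and 39.1 on average in WT. Globin genes share reads between near-identical copies. Globin level and the vessel genes above were higher in the same libraries, and the part that blood left in the tissue has in them was not tested.

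Markers of other cell types gave the following calls, against 12.6% over all genes. Of 11 macrophage genes 1 was lower, Cd68, while Lyz2 and C1qa did not pass. Of 9 T and NK cell genes 1 was lower, Klrb1c, at 188, 192 and 173 FPKM in sham and 142, 144 and 151 contralateral, with a mean of 4.20 FPKM on the ipsilateral side, a call lost with the length correction. B cell genes summed to below 1 FPKM in every library and had no call, with Ms4a1 at 0 in all sham libraries. Of 8 MHC class II genes 1 was lower, H2-DMa. Sperm and late germ cell genes (0 of 18 called, summed FPKM 119 to 144 in sham and 104 to 137 contralateral), basal cell genes (0 of 9), ciliated efferent duct genes (0 of 12), adipocyte genes (0 of 11) and nerve genes (0 of 8) had no call, and these counts do not show that the levels were equal. Of 10 clear and narrow cell genes 2 were lower, the proton pump genes Atp6v0d2 (−0.27 ± 0.07) and Atp6v1c2 (−0.53 ± 0.14), neither with the length correction, and 1 higher, Rab3b at a mean of 0.16 FPKM. Of 7 skeletal muscle genes 1 was higher, Tnnt3 at a mean of 0.33 FPKM.

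**Figure D4:**
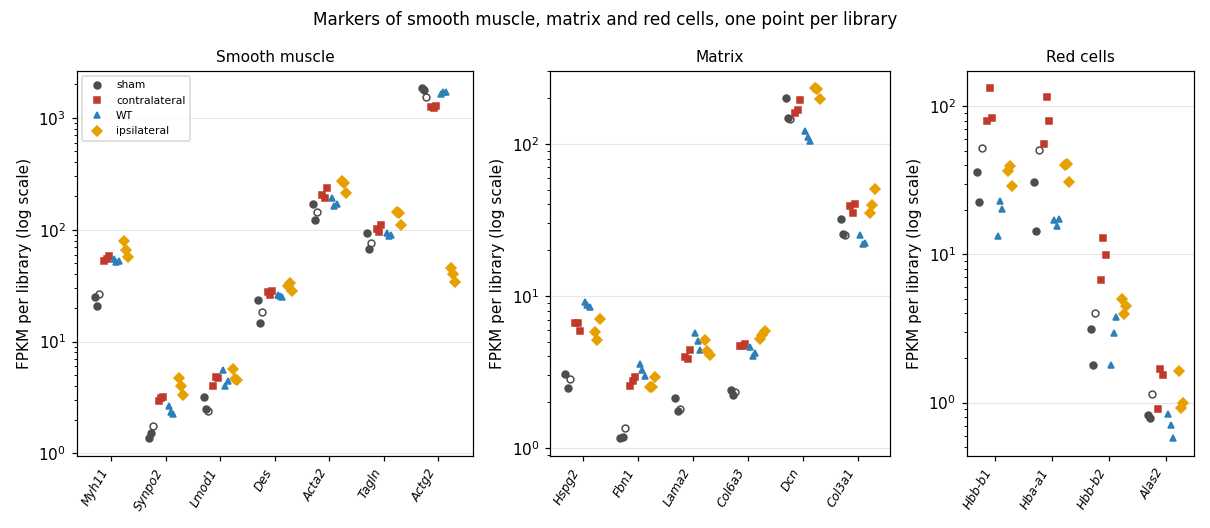
FPKM per library, on log axes, of smooth muscle, matrix and red cell genes in sham (grey circles, replicate 3 open), contralateral (red squares), WT (blue triangles) and ipsilateral (orange diamonds) IS-caput. Contralateral points lie above sham for Myh11, Hspg2 and Fbn1, where WT and ipsilateral points also lie above sham, whereas the contralateral globin points lie above those of the other groups shown and Actg2 runs the other way.

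Of 21 immediate early genes 1 was lower (Ier3), of 21 interferon response genes 1 was lower (Usp18, lost with the length correction), and of 18 clock genes 1 was lower (Bhlhe40, −0.37 ± 0.08, adjusted p = 0.00537). Among heat and cold response genes 2 of 12 were lower, Cirbp and Bag3, and among glucocorticoid-induced genes 2 of 12, Lcn2 and Mt1. No replication-dependent histone of 40 tested was called. Ion, water and acid transport genes were lower in 2 of 23, the sodium pump subunit gene Atp1b1 (−0.28 ± 0.07) and the carbonic anhydrase gene Car2 (−0.41 ± 0.11), and higher in 1, Car12 (0.40 ± 0.10), with none called without contralateral replicate 3.

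Calls over all genes varied with transcript length, more in some lists than in others. The median of the ERK targets was −0.20 as fitted and −0.21 with the length correction, and that of the cholesterol genes −0.25 in both, while that of the ribosomal protein genes was −0.08 and 0.00. Genes were ordered by the length of their longest annotated transcript and split into 4 equal bins. In the shortest bin, of up to 1918 bases, 420 genes were lower and 61 higher, with a median of −0.14. In the longest, from 4555 bases, 58 were lower and 854 higher, with a median of 0.13. Of the 1144 higher genes with a known length 74.7% fell in the longest bin, and of the 1032 lower ones 76.9% in the 2 shorter bins. The correction evened the shorter bins (76 lower and 65 higher in the shortest) but left 259 lower and 181 higher in the longest. Length measured on the principal transcript gave 484 lower and 432 higher over all genes. Whether the slope of the sham libraries arose in the tissue or in the libraries cannot be told apart, since it separates the groups compared.

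**Figure D5:**
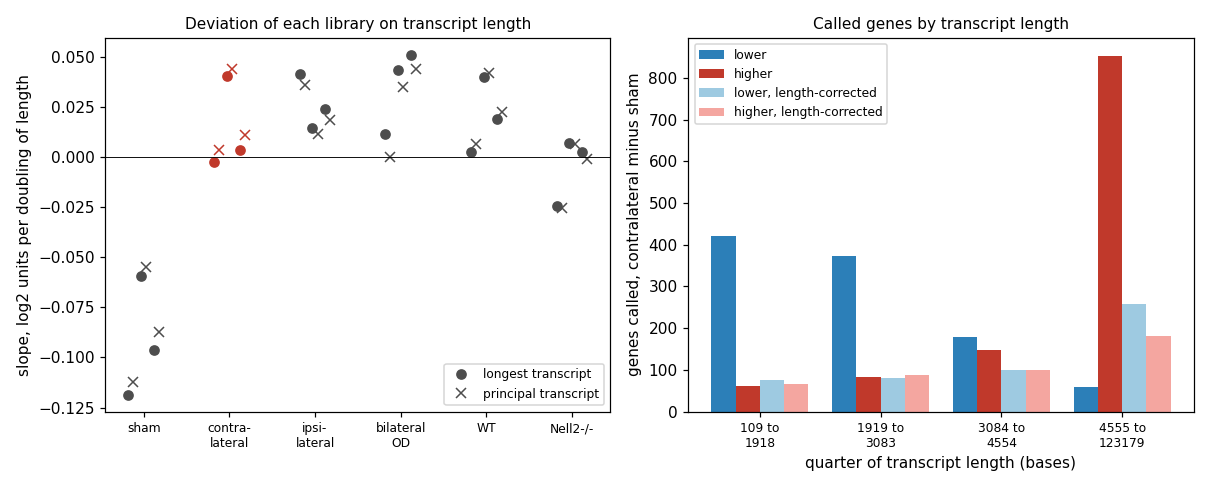
Left, slope of each library's deviation from the 18-library mean log2 level on log2 transcript length, for the longest (circles) and the principal (crosses) transcript, contralateral in red. The 3 sham libraries lie at −0.0594 to −0.119 for the longest transcript and the other 15 between −0.0245 and 0.0510. Right, genes called lower (blue) and higher (red) contralateral by bin of transcript length, as fitted (dark) and after the length correction (pale), with 854 higher genes in the longest bin falling to 181.

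WT males, 14 weeks old and not operated, give a second reference, and both comparisons with it share the WT libraries. Sham differed from WT in 27.3% of genes (2200 lower and 2531 higher), and the contralateral side in 10.9% (1017 lower and 865 higher). With the length correction these were 19.3% and 10.6%. For Myh11 the log2 difference from WT was −1.14 ± 0.13 in sham (adjusted p = 1.24e-05) and 0.06 ± 0.13 contralateral (adjusted p = 0.819). For Idi1 it was 0.59 ± 0.07 in sham and 0.14 ± 0.07 contralateral. Both genes thus read closer to WT on the contralateral side than in sham. Ier3 ran the other way, at 0.05 ± 0.12 in sham (adjusted p = 0.799) and −0.48 ± 0.12 contralateral (adjusted p = 0.0167), as did Rab20 and Cd68. Hbb-b1 was above WT in both, by 0.92 ± 0.28 in sham and 2.38 ± 0.28 contralateral.

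The smallest p of the comparison belonged to Lars2, the leucyl-tRNA synthetase gene of mitochondria (102436 in NCBI, GRCm38 chromosome 9, positions 123366927 to 123462675). It read 68.5, 65.2 and 84.9 FPKM in sham and 672, 658 and 758 contralateral (3.26 ± 0.11, adjusted p = 4.12e-11). That is 9.55 times the sham mean, and no alternative removed the call. Whether these reads came from the mRNA of the enzyme or from other RNA that maps to the locus, such as ribosomal RNA, was not tested. The level split the 18 libraries across treatments. It was 404 to 567 FPKM ipsilateral, 563 to 660 in WT and 620 to 660 in Nell2-/-, but 44.5 to 51.4 after bilateral OD. Rn45s, the ribosomal RNA precursor that mRNA libraries should leave behind, read 299, 313 and 302 FPKM in sham and 323.4, 391.8 and 1001 contralateral (adjusted p = 0.185), with contralateral replicate 3 far above the others.

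Beyond Defb23 and Atp6v0c-ps2, the genes called 10-fold lay near the detection limit. Among those lower, 1700015F17Rik read 0.531, 0.675 and 0.617 FPKM in sham and is listed at 0 in every contralateral library, as are 4930532M18Rik, Acss2os, Hdhd1a and Mogat1. Prr22 is listed at 0 in 2 of them. Among those higher, E130304I02Rik, 2010308F09Rik, 4930522O17Rik, Olfr1330 and Olfr1349 are listed at 0 in every sham library and lay at or below 1.10 FPKM contralateral. With a filter of 1 FPKM the 10-fold calls were 1 lower and 1 higher.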

How the data were processed

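Expression was measured as FPKM in 18 IS-caput libraries, 3 for each of 6 groups. The authors made stranded mRNA libraries, read them as 101 bp single ends, aligned them to mm10 with TopHat2 2.1.1 and deposited FPKM from Cufflinks 2.2.1, called normalized FPKM, for 24346 genes. Library labels and the methods name different makers of the RNA kit. Reads were not realigned and no counts were used here, so read depth is known only in relative terms, from the steps among low values.

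A linear model with 1 mean for each of the 6 groups was applied to log2(FPKM + 0.1) of all 18 libraries (limma 3.58.1, R version 4.3.3, 12 residual degrees of freedom, eBayes with trend and robust). Adjusted p are Benjamini-Hochberg values over the 17302 genes at or above 0.1 FPKM in at least 3 libraries, and 7044 genes were left out. A gene was called at an adjusted p under 0.05, and called 10-fold when group means also differed by 10-fold. A log2 difference is contralateral minus sham on the log2(FPKM + 0.1) scale, which understates the change of low genes, with its standard error. The fit was tested on simulated data. Family sums over all listed members were compared by an exact permutation test. Replicates are separate animals per the methods, and p-values measure the spread between these libraries.

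Lengths are those of the longest GENCODE M21 transcript, found for 98.5% of genes. For the length correction a spline of log2 length with 5 degrees of freedom was removed from each library's deviation from the gene mean. Alternatives were 1 or 0.01 FPKM added, no filter, a filter of 1 FPKM, median-ratio scaling, only the 6 libraries and only the 12 operated libraries. Others were plain eBayes, the replicate number as a block, correction for length or for length with GC content, and each of the 6 libraries left out. The last was the p of the study (unequal variance, under 0.05, not adjusted). The study also asked for a 10-fold difference, which was applied here only to the 10-fold calls. A correction on the principal (APPRIS) transcript was added after the data were seen.

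Genes named are the 10 largest rises and falls among called genes whose mean was 10 FPKM or more and whose ranges did not overlap, the 5 smallest p, all 10-fold calls, up to 4 most abundant and 4 most changed called members (mean of at least 1 FPKM) of each of 42 lists, and the relay genes. A named item is not reported here. Il17rd, Rab3b, Tnnt3, Eppin, Spink5, Akr1c18, Defb21, Defb41, Tenm4 and Zfp804b were chosen after their values were seen. The groups, members and lists were chosen with earlier results of these data known. Positions are from RefSeq on GRCm38.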

Additional observations from a re-analysis of the deposited data

How the results depend on the processing

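The direction of every named call was the same in the alternatives that could be fitted, except Ptpn11, at 0.18 as fitted, −0.068 with the length correction and −0.10 with length and GC content. Over all genes called as fitted, 50 changed sign with the length correction, 51 on the principal transcript and 61 with length and GC content. Igf1r, not called as fitted, was called lower at −0.37, −0.39 (principal transcript) and −0.39 (length and GC content). Of 113 named genes called, 32 were called in every alternative and 52 without each library in turn. Genes called lower, 1036 as fitted, were 514 with the length correction, 484 on the principal transcript and 566 with length and GC content. By the unadjusted p of the study alone, without its 10-fold threshold, they were 1655. They were 349 to 898 with 1 library left out, 349 without sham replicate 1. Genes called higher, 1150 as fitted, were 434, 432 and 453 under the corrections, 657 in the fit of only the 6 libraries, and 668 (without contralateral replicate 2) to 1227 with 1 library left out. Calls at 10-fold, 7 lower and 6 higher, were 11 and 10 with 0.01 FPKM added, 14 and 15 without a filter and 1 and 1 with a filter of 1 FPKM. By the full rule of the study, with its 10-fold threshold, 2 were lower and 7 higher. With 1 library left out 8 to 18 were lower and 4 to 17 higher, both most without sham replicate 3. The 31 lower genes of the Nell2-dependent list were 78 with 1 FPKM added, 20 with 0.01 and 69 in the fit of only the 6 libraries. They were 12 with either length correction, 13 with length and GC content and 75 by the unadjusted p of the study alone. With 1 library left out they were 8 (without sham replicate 1) to 32. Without their most abundant member the sums differed by −12.6% for lipocalins, −6.73% for CRISPs, 73.5% for the RNase A family, −14.1% for ADAM proteases and −12.4% for glutathione peroxidases. The cause of these shifts was not tested.

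Deviations of sham and contralateral libraries with the same replicate number had correlations of −0.04, −0.002 and 0.005. These libraries came from different animals, and the numbers showed no pairing between them. Whether the numbers pair contralateral with ipsilateral libraries was not examined. With the replicate block 1013 genes were lower and 1137 higher, 6 and 7 of them by 10-fold.

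With 3 libraries a group, exact tests cannot reach 0.05. FPKM holds no counts, so counting error of low genes is not known. The sham libraries differ from all others in their slope on transcript length, and no batch is given in the labels, so group and library effects cannot be told apart. Leaving out a library leaves 2 in its group, whose spread is taken from all groups.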

Other observations

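Lars2 was not alone in setting 6 libraries apart. In 334 of 17302 genes (1.93%) each of the 6 sham and bilateral OD libraries read below all of the other 12, and in 178 (1.03%) above them. Of the 334, 263 were called higher contralateral than in sham, and of the 178, 89 were called lower. This count was made after the data were seen, and no test was run on it.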
